A study of Mus musculus with 12 samples.

Results

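Sphingosine 1-phosphate (S1P) is a signalling lipid, and 9 mouse genes that make it, break it down or sense it were followed here in lung RNA from 12 Affymetrix arrays. The genes are the kinases Sphk1 and Sphk2, the lyase Sgpl1, the phosphatase Sgpp1 and the receptors S1pr1, S1pr2, S1pr3, S1pr4 and S1pr5. They were taken by name from the platform annotation, and for each gene the probe set with the highest mean over 12 arrays was read. All 9 members had a probe set on the array and all 9 passed the filter on low values, among 11606 genes tested. All values are log2 intensities, on which a difference of 1 is a doubling of signal.

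The study treated wild-type mice with vehicle, radiation, simvastatin (a cholesterol-lowering HMG-CoA reductase inhibitor) or both, and each of the 4 groups has 3 arrays. Control mice received vehicle. The radiation group received a single dose of 25 Gy and lungs were taken 6 weeks later. The simvastatin group received 10 mg/kg intraperitoneally 3 times per week for up to 6 weeks. The combined group received both, the injections running before and after the irradiation. Ages are labelled as 8 to 10 weeks for controls and 8 to 12 weeks for the other groups, so in each comparison with control age and treatment cannot be told apart. The labels used here name no strain and do not tie the arrays to separate animals, so p-values measure only the spread between these samples, which may be technical. The RNA is from whole lung, in which fewer cells of a type and less RNA per cell cannot be told apart. Markers of other tissues differed widely between arrays. Relative to means over 12 arrays, the squamous epithelium list ran from -1.18 to 5.57 in controls and -3.64 to 3.05 after radiation. It ran from -3.62 to 5.87 in the combined group and -3.87 to -3.62 with simvastatin. The skeletal muscle list ran from 1.20 to 3.16, -3.70 to 2.73, -3.42 to 3.83 and -4.24 to -3.24 in that order of groups. The part of these lists in the member values was not tested.

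S1P is formed when a sphingosine kinase phosphorylates sphingosine inside the cell. It is then exported and carried in blood, or removed by dephosphorylation or by irreversible cleavage. In the lung it is best known as a lipid that keeps the endothelial barrier tight: S1pr1 signals through Gi and Rac to strengthen junctions, while S1pr2 signals through G12/13 and can loosen them. Statins are known to raise the transcription factor KLF2 in endothelial cells, and KLF2 in turn is known to raise S1pr1.

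Several arrays stood apart from the rest or went against their labels. Simvastatin 1 and simvastatin 3 were near-identical, with an SD of 0.118 between their log2 values over 10342 probe sets, against 0.336 or more for pairs outside the near-identical set, so their mean counted as 1 sample and the tests used 11 samples. The array labelled combined 3 was as close to them, at 0.111 and 0.114, and was kept apart because its label differs. The fit thus counted near-identical arrays in the combined and simvastatin groups as independent samples. This bears on the p-values of combined minus simvastatin and of the interaction. Cdkn1a (p21, induced by p53 after DNA damage) read 13.12 to 13.42 on the radiation arrays, and the library labelled control 3 reached 13.01 where its fellow controls had 10.25 and 10.69. The library labelled combined 3 read 11.18 where its fellows had 13.19 and 13.17. The library labelled simvastatin 2 read 13.36 where its fellows had 11.09 and 11.11. Directions below follow the labels as given. Some of the results that use these 3 libraries, but not all, are also given without them. Control 1 lay farthest out on the first principal component, which held 41.5% of the variance, with T cell markers 4.85 above and endothelial markers 0.98 below their means over 12 arrays. The alveolar marker surfactant protein C, Sftpc, lay between 15.57 and 15.84 on every array, but other alveolar markers varied more. Aqp5 ran from 10.34 on control 1 to 12.64 on control 3, and Sftpb read 12.16 on control 1 and 12.91 to 13.73 elsewhere. The alveolar list as a whole stood at -0.72 on control 1 and between -0.20 and 0.23 on the other arrays. A description field calls the tissue of all 12 arrays that of a control animal, and groups here follow the titles and treatments.

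Upstream sequence is shown for Sphk1, because it is the member whose group means differed most between radiation and control, and for Sgpl1, the lyase it is set against below. The 250 bases before a listed start were read from RefSeq on GRCm38.p6, where 8 of 9 members had an entry and Sphk1 had 5 starts; S1pr1 was not matched. Capitals mark TATAAA (the TATA box), CACCC (the core of KLF sites), GGGCGG (the GC box bound by Sp1) and CACGTG (an E-box), searched on both strands. Sphk1 window 1 is chr11:116530850-116531099 and window 4 is chr11:116532194-116532443, both on the plus strand, and the Sgpl1 window is chr10:61147685-61147934 on the minus strand.
Sphk1 window 1: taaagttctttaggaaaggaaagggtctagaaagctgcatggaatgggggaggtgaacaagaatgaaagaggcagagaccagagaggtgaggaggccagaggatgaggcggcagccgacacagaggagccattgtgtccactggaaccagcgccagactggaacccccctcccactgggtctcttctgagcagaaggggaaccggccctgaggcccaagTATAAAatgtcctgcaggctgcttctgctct
Sphk1 window 4: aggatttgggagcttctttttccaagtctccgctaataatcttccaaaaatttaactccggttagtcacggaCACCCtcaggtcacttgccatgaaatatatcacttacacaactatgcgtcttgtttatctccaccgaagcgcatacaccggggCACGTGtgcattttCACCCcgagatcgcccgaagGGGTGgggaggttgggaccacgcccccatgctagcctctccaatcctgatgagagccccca
Sgpl1: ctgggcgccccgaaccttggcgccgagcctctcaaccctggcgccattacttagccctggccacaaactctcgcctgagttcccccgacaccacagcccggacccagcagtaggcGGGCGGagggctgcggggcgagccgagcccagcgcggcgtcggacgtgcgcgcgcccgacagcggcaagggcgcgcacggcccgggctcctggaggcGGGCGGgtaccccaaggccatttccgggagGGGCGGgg
Sphk1 window 1 held 1 TATAAA and 4 CpG dinucleotides, and its GC content was 55.6%. Sphk1 window 4 held 3 CACCC matches, 1 CACGTG and 12 CpG dinucleotides, with none of these matches overlapping. The Sgpl1 window held 3 GGGCGG matches and 31 CpG dinucleotides at a GC content of 74.8%. Over all 32841 windows of this length, 12.4% held TATAAA, 52.0% CACCC, 32.8% GGGCGG and 6.02% CACGTG, and the median was 6 CpG dinucleotides and 52.4% GC. Sphk1 windows 2, 3 and 5 held 16, 19 and 12 CpG dinucleotides and no TATAAA. The lyase window and 4 of 5 Sphk1 windows thus had more CpG dinucleotides than the median window, and Sphk1 window 1 had fewer. These matches describe the letters only, and the array does not tell which Sphk1 start was used.

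The comparison of radiation with control asks how irradiated lung differed from vehicle-treated lung, and the kinase Sphk1 had the largest difference of the members. Sphk1 (Entrez gene 20698), the growth factor- and cytokine-inducible kinase that makes S1P near the plasma membrane, read 6.18, 7.76 and 8.03 on the control arrays, 9.63, 8.23 and 8.82 on the radiation arrays, 8.25, 7.83 and 7.91 on the combined arrays, and 8.09, 7.82 and 7.98 on the simvastatin arrays. All 3 radiation arrays were above all 3 controls, and the combined arrays lay near or below the lowest radiation array, radiation 2. Of the members 1 of 9 was higher without overlap in this comparison, as were 4.86% of all genes.

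The group means of Sphk1 were 8.90 ± 0.70 (SD, n = 3) after radiation and 7.32 ± 0.999 (SD, n = 3) in controls, a difference of 1.57 ± 0.49 (SE) with a 95% confidence interval of 0.48 to 2.67. The unadjusted limma p was 0.00959 and ranked 74 of 11606 genes, but the adjusted p was 0.751. By limma 0 of 11606 genes (0%) passed in this comparison, and 5.17% had an unadjusted p under 0.05. Control 1 carried much of this difference: without it the difference was 1.003, and without the 3 libraries that go against their labels it was 1.93. With array weights it was 1.37 and passed (limma adjusted p = 0.0469), as did 1203 genes. Those weights were 0.16 for control 1, 3.52 for control 2 and 0.30 for control 3, so the control mean there rested mostly on control 2. On control 1 the endothelial list was at -0.98 and the alveolar list at -0.72 relative to their means over 12 arrays, while T cell markers stood at 4.85, and the part of these in its low Sphk1 value was not tested.

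The other Sphk1 probe set did not give the same picture. It read 3.24, 6.53 and 7.20 on the controls and 7.57, 6.30 and 6.61 on the radiation arrays. Its radiation minus control difference was 1.17 with all controls and -0.037 without control 1, and combined minus radiation was -0.41. So the groups overlapped on this probe set, and the difference rested on control 1.

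**Figure D1:**
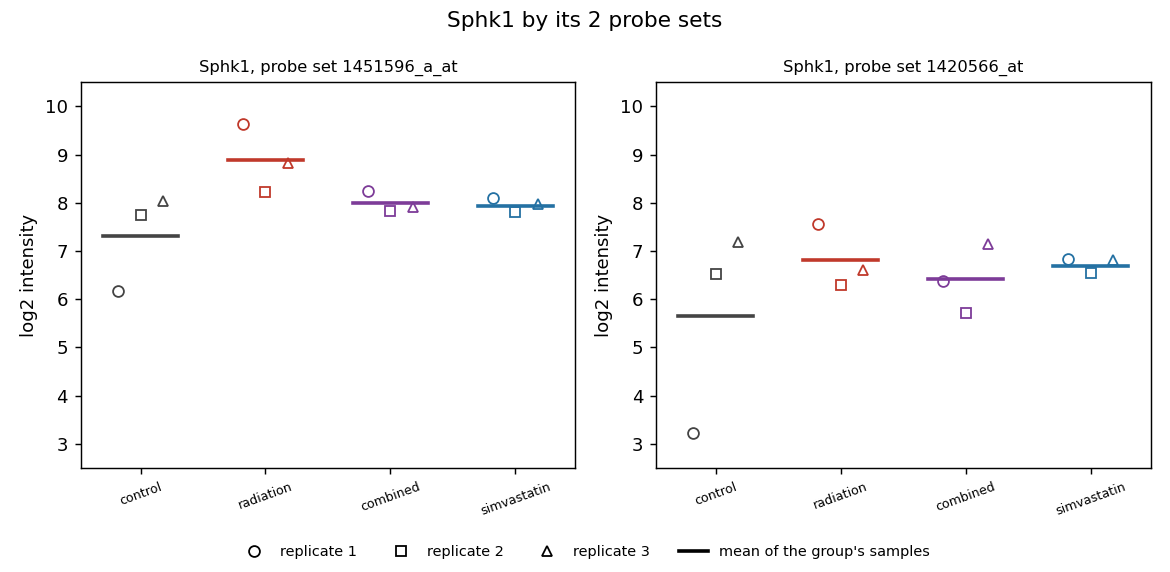
Sphk1 log2 intensity (y axis) by labelled group (x axis) for its 2 probe sets, the one of higher mean on the left; each symbol is an array, its shape gives the replicate number, and bars are means over samples (simvastatin 1 and 3 averaged first). On the left all radiation arrays, at 8.23 to 9.63, lie above all controls; on the right the groups overlap, and control 1 is at 3.24.

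For combined minus radiation, the test of adding simvastatin to irradiation, Sphk1 was 8.00 ± 0.23 (SD, n = 3) in the combined group. Its difference from radiation was -0.90 ± 0.49 (SE; interval -1.99 to 0.20; limma adjusted p = 0.835), and -0.53 without radiation 1. Without the 3 libraries that go against their labels it was -0.85. By limma 0 of 11606 genes (0%) passed for combined minus radiation, and 4.46% had an unadjusted p under 0.05. Against control, simvastatin alone gave Sphk1 a difference of 0.61 ± 0.55 (limma adjusted p = 0.99; 0% of genes called), which was 0.033 without control 1 and 1.07 without the 3 libraries that go against their labels. The interaction of radiation with simvastatin was -1.50 ± 0.73 for Sphk1 (limma adjusted p = 0.882; 0% of genes called). For all irradiated against all unirradiated samples the difference was 0.82 ± 0.37 (unadjusted p = 0.0494, limma adjusted p = 0.999; 0% of genes called), and 1.3% of genes reached an unadjusted p under 0.05 there. Without control 1 the interaction was -0.93 and the irradiated minus unirradiated difference was 0.54. Without the 3 libraries that go against their labels these were -1.92 and 0.97. Over the 4 groups the limma F test gave Sphk1 an adjusted p of 0.969, and 0% of genes passed. By group mean the order was radiation, combined, simvastatin, control, and no pair of neighbours passed a test.

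Sphk2 (Entrez gene 56632), the kinase found partly in the nucleus, read 7.05, 7.37 and 8.03 in controls and 7.58, 7.44 and 7.61 after radiation. It read 7.49, 6.98 and 7.55 in the combined group and 7.62, 7.05 and 7.61 with simvastatin alone. The radiation arrays sat inside the range of the controls. The difference was 0.061 ± 0.29 (SE; interval -0.60 to 0.72; limma adjusted p = 0.952), and -0.20 ± 0.29 for combined minus radiation (adjusted p = 0.901). Its other probe set lay at 2.27 to 2.33 on all arrays, below the filter, and was not tested.

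**Figure D2:**
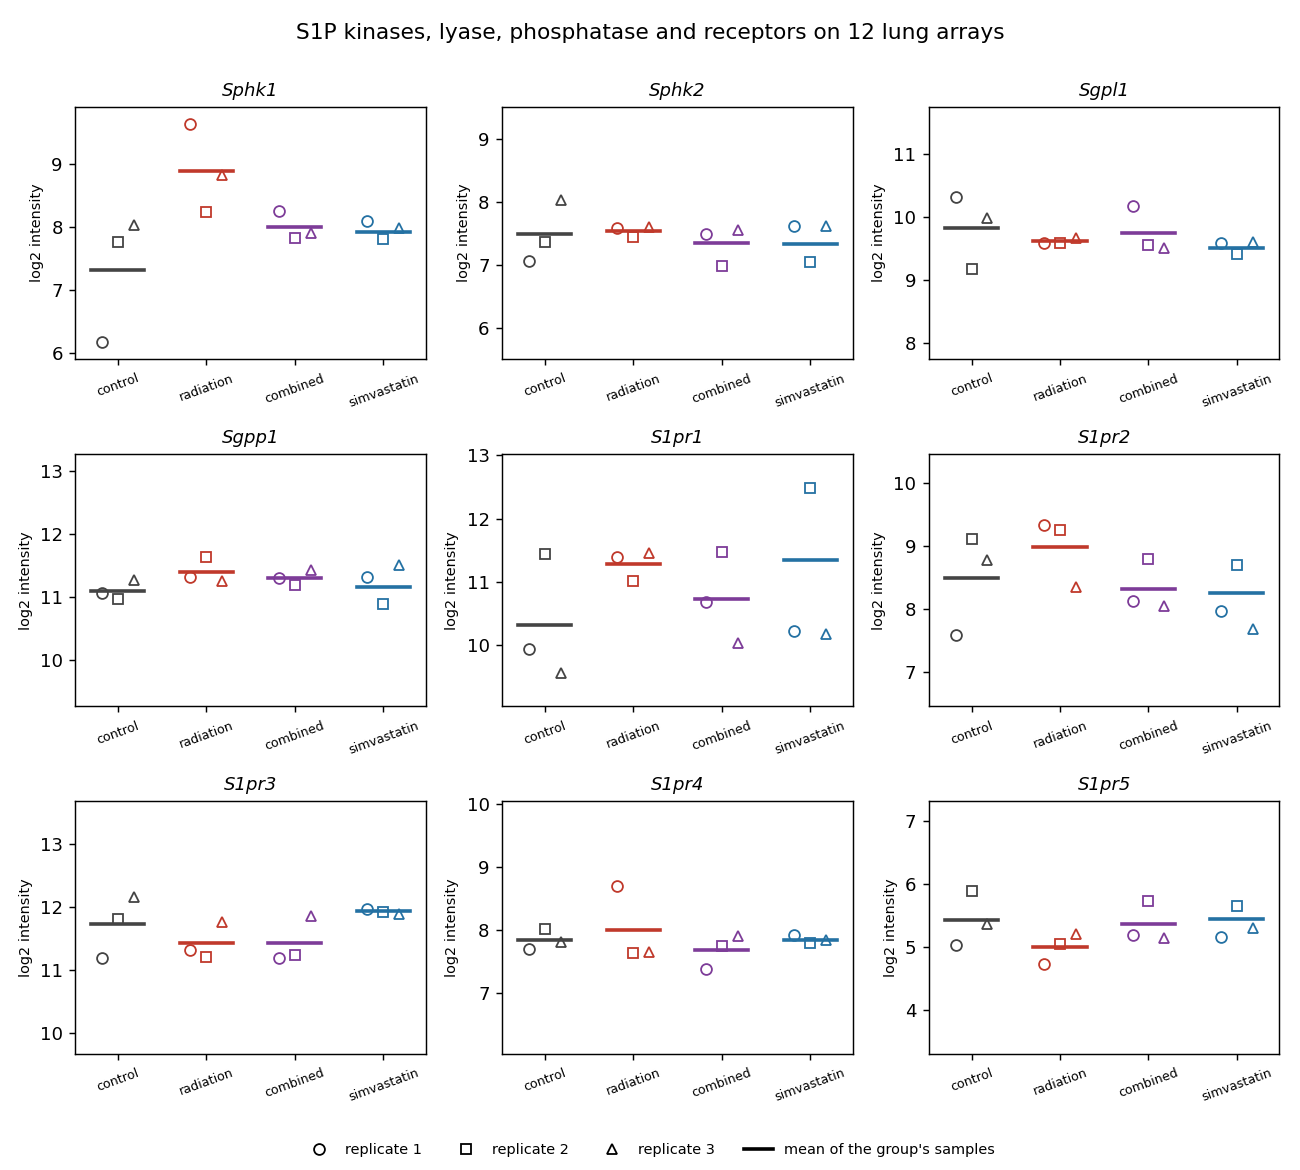
Log2 intensity (y axis, each panel spanning the same 4 log2 units) of the 9 members by labelled group (x axis); each symbol is an array, its shape gives the replicate number, and bars are means over samples (simvastatin 1 and 3 averaged first). Sphk1 spreads from 6.18 to 9.63 and S1pr1 from 9.56 to 12.48, while Sgpp1 stays between 10.89 and 11.64.

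For the enzymes that remove S1P no difference passed in any comparison. Sgpl1 (Entrez gene 20397), the lyase that cleaves S1P irreversibly in the endoplasmic reticulum, read 10.32, 9.17 and 9.99 in controls, 9.59, 9.59 and 9.67 after radiation, 10.17, 9.56 and 9.51 in the combined group, and 9.60, 9.42 and 9.61 with simvastatin. The radiation arrays were nearly equal and lay within the control range. The difference was -0.21 ± 0.29 (SE; interval -0.86 to 0.44; limma adjusted p = 0.831), which was 0.032 without control 1 and 0.063 with each array centred on its median. Combined minus radiation was 0.13 ± 0.29 (limma adjusted p = 0.94), and -0.23 with median centring. The other Sgpl1 probe set gave -0.66 and -0.13 in these comparisons, the first of them -0.094 without control 1.

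Sgpp1 (Entrez gene 81535), the phosphatase that returns S1P to sphingosine, had the narrowest range of the members, 0.74 over 12 arrays against a median of 1.17 over all genes tested. It read 11.07, 10.96 and 11.27 in controls, 11.31, 11.64 and 11.25 after radiation, 11.30, 11.20 and 11.43 in the combined group, and 11.32, 10.89 and 11.51 with simvastatin. The radiation group was 0.30 ± 0.18 (SE) above control, with an interval of -0.10 to 0.70 (limma adjusted p = 0.751), and radiation 3 lay below control 3. Combined minus radiation was -0.093 ± 0.18 (limma adjusted p = 0.927). Its other probe sets gave 0.21 and 0.011 for radiation minus control, and -0.21 and -0.53 for combined minus radiation.

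RNA signals of the kinase and the lyase were compared within each array as Sphk1 minus Sgpl1, which does not move with the scaling of an array. This quantity does not measure how much S1P was made or cleaved. Its level sets different probes side by side and means nothing by itself, so only its change between groups is compared. It read -4.14, -1.42 and -1.97 on the controls, 0.039, -1.36 and -0.84 after radiation, -1.92, -1.73 and -1.59 in the combined group, and -1.50, -1.60 and -1.64 with simvastatin. The radiation arrays were above all controls and above all combined arrays. The mean difference was 1.79 for radiation minus control and -1.03 for combined minus radiation, each with an exact two-sided permutation p of 0.1, the lowest that 3 against 3 samples allow, and 0.4 after adjustment over the 12 such tests made. Without control 1 the first difference was 0.97, and without radiation 1 the second was -0.65. Without the 3 libraries that go against their labels the differences were 2.06 and -1.11. All these values use the Sphk1 probe set of higher mean. The quantity was not read with the other Sphk1 probe set, on which radiation and control arrays overlapped. Sphk1 on that probe set differed by -0.037 for radiation minus control without control 1.

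**Figure D3:**
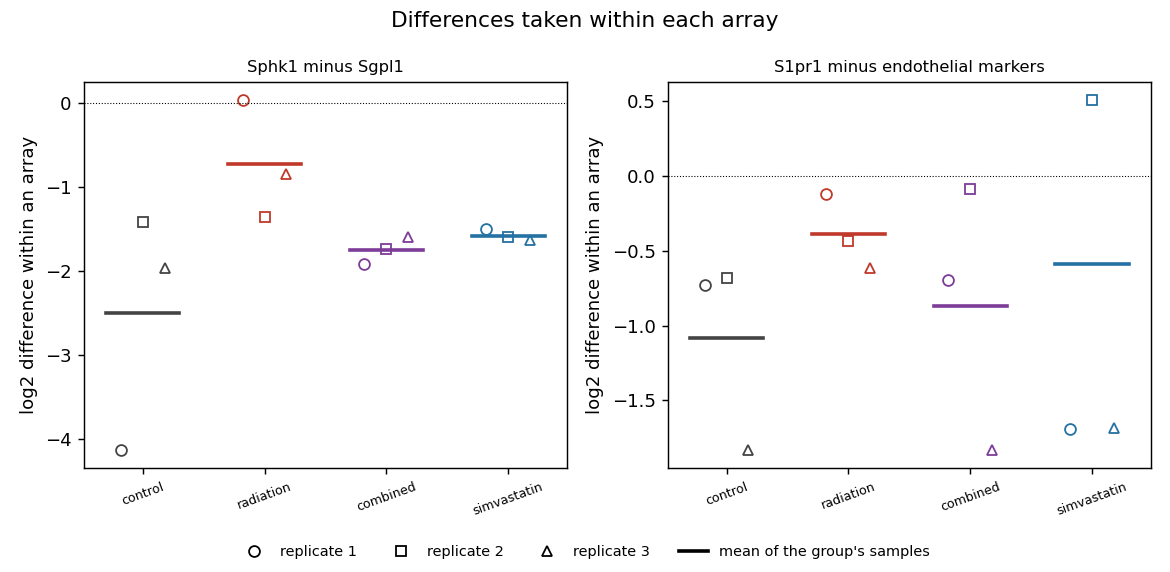
Log2 differences taken within each array (y axis) by labelled group (x axis), for Sphk1 minus Sgpl1 on the left and S1pr1 minus the mean of 14 endothelial markers on the right; symbols are arrays, shapes give the replicate number, and bars are means over samples (simvastatin 1 and 3 averaged first). On the left the radiation arrays lie above all control and combined arrays; on the right control 3, combined 3, simvastatin 1 and simvastatin 3 lie lowest, at -1.84 to -1.68.

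The receptor S1pr1 (Entrez gene 13609), the main S1P receptor of endothelium and the one lymphocytes use to leave lymphoid organs, varied widely within groups. It read 9.93, 11.43 and 9.56 in controls, 11.39, 11.002 and 11.45 after radiation, 10.67, 11.46 and 10.02 in the combined group, and 10.21, 12.48 and 10.17 with simvastatin. Radiation arrays were alike and high, but control 2 was as high and simvastatin 2 was the highest of all. Its pooled SD within groups was 0.91, against a median of 0.35 over all genes tested.

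Radiation minus control was 0.97 ± 0.64 (SE; interval -0.47 to 2.41; limma adjusted p = 0.751) for S1pr1, and combined minus radiation was -0.56 ± 0.64 (adjusted p = 0.875). Without control 2 the first difference was 1.54, without control 3 it was 0.60, and without the 3 libraries that go against their labels it was also 0.60. The second was -0.21 without combined 3 and without those 3 libraries, and -0.93 without combined 2. Simvastatin minus control was 1.03 ± 0.72 (limma adjusted p = 0.99), and -0.11 without simvastatin 2 and -0.49 without the 3 libraries. The interaction was -1.59 ± 0.96 (limma adjusted p = 0.882) and 0.28 without the 3 libraries. The order of group means, simvastatin, radiation, combined, control, therefore depended on single arrays.

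Set against endothelium, S1pr1 still varied within groups. S1pr1 minus the mean of the 14 endothelial markers read -0.73, -0.68 and -1.83 in controls, -0.12, -0.44 and -0.62 after radiation, -0.69, -0.090 and -1.84 in the combined group, and -1.69, 0.51 and -1.68 with simvastatin. The radiation arrays were above all controls, with a mean difference of 0.69 (exact two-sided permutation p = 0.1, the lowest possible; adjusted 0.4), which was 0.32 without control 3. For combined minus radiation the difference was -0.48 (exact p = 0.5), and -0.00036 without combined 3. The endothelial list itself lay between -0.98 and 0.48 in controls, -0.20 and 0.43 after radiation, -0.28 and 0.22 in the combined group and 0.21 and 0.34 with simvastatin, relative to its means over 12 arrays. For this list 12 of 14 members were above 0 for radiation minus control (median 0.35, against 0.084 over all genes) and 0 passed by limma. This count includes control 1, at -0.98. Control 2 and control 3 were at 0.48 and -0.25, and all radiation arrays lay between these.

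S1pr2 (Entrez gene 14739), the receptor coupled mainly to G12/13, read 7.58, 9.11 and 8.78 in controls, 9.32, 9.26 and 8.35 after radiation, 8.12, 8.80 and 8.05 in the combined group, and 7.97, 8.69 and 7.68 with simvastatin. Radiation 1 and radiation 2 were the highest arrays, and each group overlapped every other. Radiation minus control was 0.49 ± 0.45 (SE; interval -0.52 to 1.49; limma adjusted p = 0.769), falling to 0.032 without control 1. Combined minus radiation was -0.65 ± 0.45 (interval -1.66 to 0.35; adjusted p = 0.835), and the other S1pr2 probe set gave -0.68. That probe set gave 0.050 for radiation minus control, and -0.32 without control 1.

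S1pr3 (Entrez gene 13610), a receptor of vascular smooth muscle, fibroblasts and endothelium that couples to Gi, Gq and G12/13, was lower on average in the irradiated groups. It read 11.20, 11.82 and 12.17 in controls, 11.33, 11.20 and 11.76 after radiation, 11.19, 11.24 and 11.85 in the combined group, and 11.97, 11.93 and 11.90 with simvastatin. The simvastatin samples, at 11.93 on average, lay above all 3 combined arrays. Of the members 1 of 9 was lower without overlap in this comparison, as were 6.76% of all genes. The combined minus simvastatin difference was -0.50 ± 0.30 (SE; interval -1.19 to 0.18; limma adjusted p = 1.0), and the other probe sets of S1pr3 gave -0.51 and -1.15. The highest combined array here is combined 3, which is near-identical to simvastatin 1 and simvastatin 3. Without the 3 libraries that go against their labels, combined 3 among them, the difference was -0.72.

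Across all irradiated against unirradiated samples S1pr3 differed by -0.40 ± 0.20 (SE; unadjusted p = 0.0787, limma adjusted p = 0.999). It kept its sign in all alternatives, between -0.56 and -0.29, without passing in any. Radiation minus control was -0.30 ± 0.27 (limma adjusted p = 0.769), -0.56 without control 1, -0.081 without control 3 and -0.025 with median centring. Combined minus radiation was -0.00084 ± 0.27 (interval -0.61 to 0.61, limma adjusted p = 0.999), and -0.36 with median centring. The other probe sets of S1pr3 gave -0.18 and -0.78 for combined minus radiation. Smooth muscle and pericyte markers beside S1pr3 had 1 of 7 members above 0 for radiation minus control (median -0.32). For combined minus radiation 7 of 7 were above 0 (median 0.62), and 0 passed in either comparison. Over all genes 60.3% and 37.4% were above 0, with medians of 0.084 and -0.092. The level of the smooth muscle and pericyte list ran from -0.60 to 0.068 in controls and -0.89 to -0.11 after radiation. It ran from -0.017 to 0.69 in the combined group and -0.42 to 0.66 with simvastatin. Its values on control 3, combined 3 and simvastatin 2, which go against their labels, were 0.068, 0.69 and -0.42. The part of this list in the S1pr3 values was not tested.

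The receptors of blood cells overlapped between all groups. S1pr4 (Entrez gene 13611), expressed in lymphoid and myeloid cells, read 7.70, 8.02 and 7.80 in controls, 8.69, 7.64 and 7.65 after radiation, 7.39, 7.75 and 7.91 in the combined group, and 7.92, 7.80 and 7.85 with simvastatin. No array but radiation 1 was above 8.02. Radiation minus control was 0.15 ± 0.30 (SE; interval -0.51 to 0.82; limma adjusted p = 0.876) and -0.20 without radiation 1. Combined minus radiation was -0.31 ± 0.30 (adjusted p = 0.856) and 0.039 without radiation 1. Control 1, which had the highest T cell markers with Cd3e at 10.01 against 4.58 to 6.45 elsewhere, was not raised in S1pr4.

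S1pr5 (Entrez gene 94226), which natural killer (NK) cells use to leave marrow and lymph nodes, lay nearest to the filter at log2 4.84 and ranged from 4.73 to 5.89. It read 5.03, 5.89 and 5.36 in controls, 4.73, 5.05 and 5.20 after radiation, 5.19, 5.73 and 5.15 in the combined group, and 5.16, 5.65 and 5.30 with simvastatin. Radiation arrays overlapped the controls through control 1. The difference was -0.44 ± 0.33 (SE; interval -1.17 to 0.30; limma adjusted p = 0.755), or -0.93 with array weights, where it passed (limma adjusted p = 0.0478) among the 1203 of 11606 genes that did so there. Control 2, the highest S1pr5 array at 5.89, had a weight of 3.52 there, against 0.16 for control 1 and 0.30 for control 3. Before weighting, combined minus radiation was 0.36 ± 0.33 (adjusted p = 0.85) and -0.016 after quantile normalization. The NK list had 2 of 7 genes tested; 0 of 2 were above 0 for radiation minus control (median -0.35), and their part in the S1pr5 values was not tested. Klrk1, an activating receptor, was highest on simvastatin 2, control 2 and radiation 3, at 6.10, 5.74 and 5.53. Gzma, a granule protease, was highest on control 1, control 2 and radiation 2, at 11.48, 11.03 and 10.99. Ncr1, Klre1, Prf1 and Eomes did not pass the filter, so NK cells were thinly measured here.

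**Figure D4:**
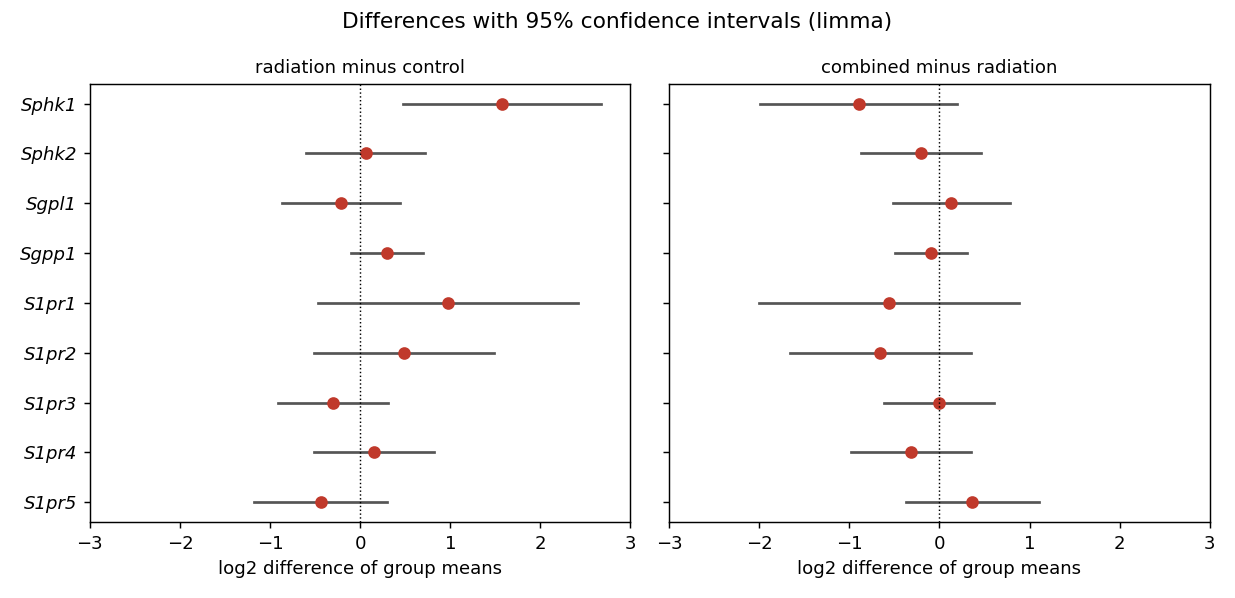
Log2 difference of group means (x axis) of the 9 members for radiation minus control on the left and combined minus radiation on the right; points are limma estimates from 11 samples and lines their 95% confidence intervals. Only the Sphk1 interval on the left, 0.48 to 2.67, leaves out 0 before adjustment for 11606 genes.

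As a group, 6 of 9 members were above 0 for radiation minus control, with a median of 0.15 against 0.084 over all genes, of which 60.3% were above 0. For combined minus radiation 2 of 9 were above 0, with a median of -0.20 against -0.092, and 37.4% of all genes were above 0. Most genes thus lay on the same side of 0 as most members. Centring each array on its median shifted the all-gene median to 0.36 and -0.45 respectively, and Sphk1 to 1.85 and -1.26. No member passed in any of the 7 comparisons or in the F test by limma; 1 of 9 had an unadjusted p under 0.05 for radiation minus control and 1 of 9 for irradiated minus unirradiated, Sphk1 each time. In the other 5 comparisons and in the F test 0 of 9 members had an unadjusted p under 0.05, where 4.46% of all genes did when the combined group was set against radiation, 1.84% and 2.82% when simvastatin and the combined group were each set against control, 1.32% when these treatments were set against each other, 3.25% in the interaction and 1.46% in the F test.

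The remaining comparisons gave members on both sides of 0. For simvastatin minus control 6 of 9 members were above 0 (49.6% of all genes), for combined minus control 3 of 9 (50.5%), for combined minus simvastatin 5 of 9 (49.1%), for the interaction 2 of 9 (42.7%) and for irradiated minus unirradiated 6 of 9 (61.7%). Apart from Sphk1 and S1pr3 as given above, no member separated its groups without overlap in any of the 6 comparisons of groups. Over all genes the share separated upward and downward was 4.86% and 2.03% for radiation minus control, 3.7% and 13.5% for combined minus radiation, 3.36% and 7.96% for simvastatin minus control, and 2.67% and 3.87% for combined minus control. It was 7.75% and 6.76% for combined minus simvastatin, and 0.0948% and 0.00862% for irradiated minus unirradiated.

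The genes that supply, carry and dephosphorylate S1P were read as a second list of 18, of which 14 were tested. For radiation minus control 12 of 14 were above 0 (median 0.36) and 0 passed; for combined minus radiation 4 of 14 were above 0 (median -0.070) and 0 passed; for simvastatin minus control 13 of 14 were above 0 (median 0.22) and 0 passed, where 49.6% of all genes were above 0. Control 1 lay lowest for this list, at -0.69 relative to its means over 12 arrays, against -0.12 to 0.14 on the other arrays. Asah1, the acid ceramidase that releases sphingosine in lysosomes, read 11.55, 12.32 and 12.33 in controls and 12.42, 12.59 and 12.29 after radiation, a difference of 0.36 ± 0.21 (SE; limma adjusted p = 0.751). Spns2, the endothelial exporter of S1P, differed by -0.20 ± 0.38 for radiation minus control and 0.44 ± 0.38 for combined minus radiation (limma adjusted p = 0.872 and 0.846). Plpp3, a surface phosphatase that degrades extracellular S1P, differed by 0.15 ± 0.25 and -0.092 ± 0.25 in the same comparisons (limma adjusted p = 0.856 and 0.954). Apom, the plasma carrier of S1P, did not pass the filter.

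Of 20 genes of S1P receptor signalling 18 were tested and 0 passed in any comparison by limma. For radiation minus control 14 of 18 were above 0 (median 0.12) and for combined minus radiation 9 of 18 (median -0.027). Klf2, the flow- and statin-responsive transcription factor of endothelium, read 11.32, 13.07 and 11.92 in controls, 12.66, 11.89 and 13.36 after radiation, 13.30, 13.07 and 13.50 in the combined group, and 13.59, 13.18 and 13.47 with simvastatin. All simvastatin arrays were above all controls for Klf2, as were 3.36% of all genes over samples, and the difference was 1.25 ± 0.50 (SE; unadjusted p = 0.0336, limma adjusted p = 0.99; 1.84% of genes had an unadjusted p under 0.05). The 14 endothelial markers were on the same side: 14 of 14 were above 0 for simvastatin minus control (median 0.53, against -0.0023 over all genes) and 0 passed by limma. Their part in the Klf2 values was not tested. Both results include control 1, the lowest array for Klf2 and for the endothelial list (-0.98), while Klf2 on control 2 was close to simvastatin 2. The endothelial list stood at 0.48 on control 2, above all simvastatin arrays, at 0.21 to 0.34. Combined minus control was 1.18 ± 0.45 for Klf2 (SE, limma unadjusted p = 0.0263, adjusted p = 0.995), with overlapping groups. In that comparison 2.82% of genes had an unadjusted p under 0.05.

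Gna13, a G protein of the G12/13 class that S1pr2 and S1pr3 couple to, differed by 0.036 ± 0.19 for radiation minus control and 0.084 ± 0.19 for combined minus radiation (limma adjusted p = 0.955 and 0.94). Cd69, the lymphocyte protein that pulls S1pr1 off the cell surface, read 10.38, 8.60 and 7.22 in controls and 6.59, 7.90 and 7.87 after radiation, a difference of -1.28 ± 0.68 (limma adjusted p = 0.751), with its highest value on control 1 beside the T cell markers.

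The genes whose pattern over the 11 samples was most like a member's were found by Pearson's r, as a description over samples that share tissue, arrays and the near-identical libraries. Sphk1 was most like Bcar3, at 0.964, Peli2, at 0.960, and Rabgef1, at 0.953, and these were 0.921, 0.946 and 0.911 over the 10 samples without control 1. S1pr1 was most like Pgm2, Sat1 and Rhot1, at 0.929, 0.924 and 0.908. S1pr2 was most like Cenpb, at 0.978, Tmem238, at 0.953, and Tmem243, at 0.952. S1pr3 was most like Prr5l, at 0.938, and the endothelial genes Gja4, a gap junction protein of arteries, at 0.909 and Kdr, the VEGF receptor, at 0.894. Sgpl1 was most like the mitochondrial chaperone gene Hspd1, at 0.954, with Uck2 and Cmtm7 at 0.952 and 0.938. Sphk2 was most like Dctn4, Osbp and Klhdc3, at 0.962, 0.959 and 0.948, and Sgpp1 most like Actn1, Jade1 and Pgm2l1, at 0.908, 0.908 and 0.903. S1pr4 and S1pr5 had weaker matches, Syf2, Nthl1 and Ahcyl2 at 0.888, 0.866 and 0.860, and H2-Q5, Myo10 and Traf7 at 0.896, 0.830 and 0.825.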

How the data were processed

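The deposited values are log2 intensities of 45101 probe sets on 12 arrays, and per the submitters' processing notes MAS5 and GCRMA were used, with no version or setting named. Array medians lay between 4.41 and 5.12, and the number of arrays limits the precision. Leaving out 64 Affymetrix controls, 34945 probe sets had 1 gene symbol, 932 several and 9160 none; 34741 of those with 1 symbol matched RefSeq by Entrez identifier. Probe sets had to exceed log2 4.84, the table's median, on 3 or more of the 12 arrays, and the probe set of highest mean stood for its gene. Group means of 4 groups were fitted to 11 samples by limma 3.58.1 (R 4.3.3) with 7 residual degrees of freedom (lmFit, eBayes with trend). P-values are two-sided, adjusted by Benjamini and Hochberg over 11606 genes in each of 7 comparisons and in an F test, with a threshold of 0.05. The fit was tested on simulated data. The values of 1 pathway gene are not reported here. Members, gene lists, named genes (all members, fixed pathway genes, and the 3 genes of highest r with each member) and the averaging of simvastatin 1 and simvastatin 3 were chosen with earlier results of these data known. Alternatives changed sample counting, scaling, filters, variance model and probe sets, or left out samples.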

Additional observations from a re-analysis of the deposited data

How the results depend on the processing

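No member passed the threshold as reported, and the 11 alternatives and 11 fits that leave out a sample gave 2 member calls in all, both with array weights for radiation minus control: Sphk1 at 1.37 and S1pr5 at -0.93 (limma adjusted p = 0.0469 and 0.0478), so 2 members passed there. Those weights ran from 0.16 for control 1 to 3.52 for control 2. With them 1203 genes passed for radiation minus control, 1173 for combined minus radiation and 43 for combined minus control, against 0. Without control 3, combined 3 and simvastatin 2 the counts were 9 for radiation minus control and 2 each for combined minus control, irradiated minus unirradiated and the F test. When 1 sample was left out the counts of genes ran from 0 to 1 in radiation minus control, combined minus control, the interaction, irradiated minus unirradiated and the F test, the 1 each time without control 3.

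Of 63 member values (9 members in 7 comparisons), 22 kept their sign in all settings and 41 changed it in at least 1. Sphk1 kept its sign for radiation minus control, from 1.003 to 1.93, and for combined minus radiation, from -1.26 to -0.53. None of these settings read the other Sphk1 probe set alone. That probe set gave -0.037 for radiation minus control without control 1, and -0.41 for combined minus radiation. Sign changes among the values given above were as follows, and their cause was not tested. With median centring Sgpl1 was 0.063 for radiation minus control and -0.23 for combined minus radiation. With quantile normalization combined minus radiation was 0.054 for S1pr3 and -0.016 for S1pr5. With array weights Sgpl1 was 0.32 for radiation minus control. Without the 3 libraries S1pr1 was -0.49 for simvastatin minus control and 0.28 for the interaction.

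Leaving out 1 sample gave these ranges. For radiation minus control they were Sphk2 from -0.15 to 0.33, Sgpl1 from -0.54 to 0.032 and S1pr4 from -0.20 to 0.33. For combined minus radiation they were S1pr4 from -0.49 to 0.039, Sgpp1 from -0.17 to 0.025, S1pr3 from -0.21 to 0.16 and Sgpl1 from -0.082 to 0.25. For simvastatin minus control S1pr1 ran from -0.11 to 2.18. Sphk1 minus Sgpl1 for combined minus control ran from -0.058 to 1.30. S1pr1 minus endothelial markers ran from -0.18 to 0.69 for combined minus control, from -1.38 to 0.81 for combined minus simvastatin and from -0.61 to 1.59 for simvastatin minus control. This last quantity was 0.082 for combined minus simvastatin with 12 arrays counted singly, and without the 3 libraries it was 1.30 there and -0.98 for simvastatin minus control.

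With 12 arrays counted singly and the replicate block, 0 members and 0 genes passed in every comparison, as without the block, and Sphk1 was 1.57 for radiation minus control (limma adjusted p = 0.585). The labels do not say what a shared number marks. Correlations of deviations ran from -0.26 to 0.41 over all groups, and were 0.32, 0.29 and 0.41 for control with combined: 8 of 18 same-numbered pairs had a correlation over 0.1, and 8 of 12 arrays correlated best with their own number.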
